A study of Mus musculus with 16 samples.

Results

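The Rab GTPases are the largest branch of the Ras-like small GTPases and act as switches of membrane traffic. A Rab protein in its GTP-bound form sits on one kind of membrane and recruits effectors such as motors, tethers and docking proteins. Guanine nucleotide exchange factors (GEFs) load it with GTP, GTPase-activating proteins (GAPs) turn it off, and GDP dissociation inhibitors (GDIs) keep its prenylated, inactive form soluble. In myeloid cells the family serves phagosome maturation, Toll-like receptor traffic and the release of granules. Members were taken by symbol alone, as Rab followed by a number and at most 1 further letter and 1 further number, which gave 59 of the 54347 genes of the table.

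Poly(A) RNA was measured by bulk RNA-seq in 16 libraries, 4 mice for each of 4 groups. LSKs (Lin-Sca-1+c-Kit+, the bone marrow fraction of stem cells and multipotent progenitors) and GMPs (Lin-Sca-1-c-Kit+Cd16/32+ granulocyte-monocyte progenitors) were sorted after bead enrichment for c-Kit. URE mice lack the upstream regulatory element, an enhancer of *Spi1*, in all cells, and *Spi1* encodes the transcription factor PU.1. WT mice are littermates, and all mice were C57BL/6, untreated and 8 to 12 weeks old. The labels do not say whether the LSKs and GMPs of one number came from the same mouse. Library totals were 20028302 to 29128858 counts. Levels are CPM, read counts relative to the library size as scaled by TMM over the 16 libraries, with replicates in the order 1 to 4. Levels are compared between genes only as CPM per kb of exon.

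*Spi1* averaged 125 CPM in WT LSKs and 3.05 CPM in URE LSKs (log2 fold change -5.39, SE 0.471, edgeR adjusted p = 0.000266), and 139 CPM in WT GMPs against 20.8 CPM in URE GMPs (-2.73, SE 0.296, edgeR adjusted p = 0.000950). Summed GMP markers lay at 2169 to 2947 CPM in the LSK libraries, at 55550 to 74200 CPM in WT GMPs and at 103800, 155000, 73030 and 107500 CPM in URE GMPs. Most of the sum in GMPs was *Mpo*, with means of 50540 CPM in WT and 89600 CPM in URE. Of the 9 GMP markers, 7 had a log2 fold change above 0 between URE and WT GMPs, with 1 called higher and 1 lower. *Ms4a3* averaged 637 CPM in WT GMPs and 177 CPM in URE GMPs, and *Fcgr2b* 89.2 and 50.5 CPM. Summed LSK markers were 3604 to 5932 CPM in WT LSKs against 2927 to 3802 CPM in URE LSKs, and 1418 to 2813 CPM in WT GMPs against 1001 to 1567 CPM in URE GMPs. Of these 10 markers, 2 were called lower in URE and 0 higher in each cell type, and *Cd34*, used to define progenitors, averaged 1387 CPM in WT LSKs and 576 CPM in URE LSKs. The list was mixed in LSKs, where 5 of the 10 had a log2 fold change above 0 and the median was -0.03. In GMPs 4 of the 10 were above 0 and the median was -0.83. Markers of other cells also moved with genotype. The sum of 5 monocyte markers was 1274 to 1976 CPM in WT GMPs, but 72.1, 660, 76.7 and 101 CPM in URE GMPs, so that URE GMP replicate 2 stood apart. In LSKs the same sum was 56.1 to 112 CPM in WT and 10.2 to 20.6 CPM in URE. The sum of 6 late neutrophil markers was 43.0 to 144 CPM in WT GMPs and 217 to 975 CPM in URE GMPs, and in LSKs it was 34.9 to 177 CPM in WT and 181 to 361 CPM in URE. The sum of 4 dendritic markers was 763 to 1512 CPM in WT LSKs against 263 to 424 CPM in URE LSKs, and 219 to 373 CPM in WT GMPs against 15.4 to 35.0 CPM in URE GMPs. *Flt3*, which is also among the LSK markers, gave most of this sum in LSKs, with means of 759 CPM in WT and 246 CPM in URE. *Cd74* averaged 241 and 59.9 CPM in WT and URE LSKs, *H2-Aa* 47.3 and 18.2 CPM, and *Siglech* 0.539 and 0 CPM. The sum of 4 B cell markers was 57.9 to 85.0 CPM against 25.5 to 36.0 CPM in LSKs and 62.3 to 85.4 CPM against 8.18 to 23.2 CPM in GMPs. The 6 basophil and mast cell markers were mixed in GMPs, with 1 called higher and 2 lower in URE and a median log2 fold change of -0.65. *Cpa3* had mean levels of 579 CPM in WT GMPs and 1223 CPM in URE GMPs, *Prss34* of 187 and 34.1 CPM, and *Ms4a2* of 74.1 and 9.51 CPM. None of 3 T cell markers reached 1 CPM as a group mean. *Xist* and Y-linked transcripts separated the animals by sex, with 3 males and 1 female among WT and 1 male and 3 females among URE, in both cell types. The part of these differences in the results was not tested beyond the values given beside them.

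Of the 59 members, 53 had enough counts for a test in at least 1 comparison. The other 6 reached at most 26 counts (*Rab15*), 14 (*Rab30*), 6 (*Rab25*), 5 (*Rab9b*), 3 (*Rab3b*) and 1 (*Rab3c*) in any library. The members together took 0.306 to 0.467% of a library's counts. Their sum was 3746 ± 380 CPM in WT LSKs, 3836 ± 550 in URE LSKs, 4231 ± 650 in WT GMPs and 4498 ± 614 in URE GMPs (SD, n = 4). The ranges of these sums overlapped.

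By CPM per kb, the strongest members were general housekeeping Rabs, together with a few of the granule and endosome branches. *Rab7*, the late endosome and lysosome Rab, measured 129 ± 1.36 CPM per kb in WT LSKs and 131 ± 14.8 in URE LSKs, and it led in GMPs with 181 ± 19.3 in WT and 167 ± 17.7 in URE (SD, n = 4). *Rab1b*, which acts between ER and Golgi, measured 97.1, 114, 142 and 131 CPM per kb in WT LSKs, URE LSKs, WT GMPs and URE GMPs. *Rab38*, a Rab of lysosome-related organelles, was second in WT LSKs (98.3 ± 11.2 CPM per kb) and first in URE LSKs (136 ± 18.8), where it differed from *Rab7* by less than its SD, and it was among the top 5 in URE GMPs (84.2 ± 11.97). *Rab31*, of the endosome and trans-Golgi network, was among the top 5 only in WT cells, with 67.6 ± 17.8 CPM per kb in LSKs and 89.6 ± 30.7 in GMPs. *Rab27a*, the granule docking Rab, was among the top 5 only in URE GMPs, with 86.3 ± 37.2 CPM per kb. The remaining places went to *Rab8a* and *Rab8b*, which serve transport to the plasma membrane, and in WT GMPs to *Rab32* (63.0 ± 11.4 CPM per kb), a partner of *Rab38* at lysosome-related organelles.

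**Figure D1:**
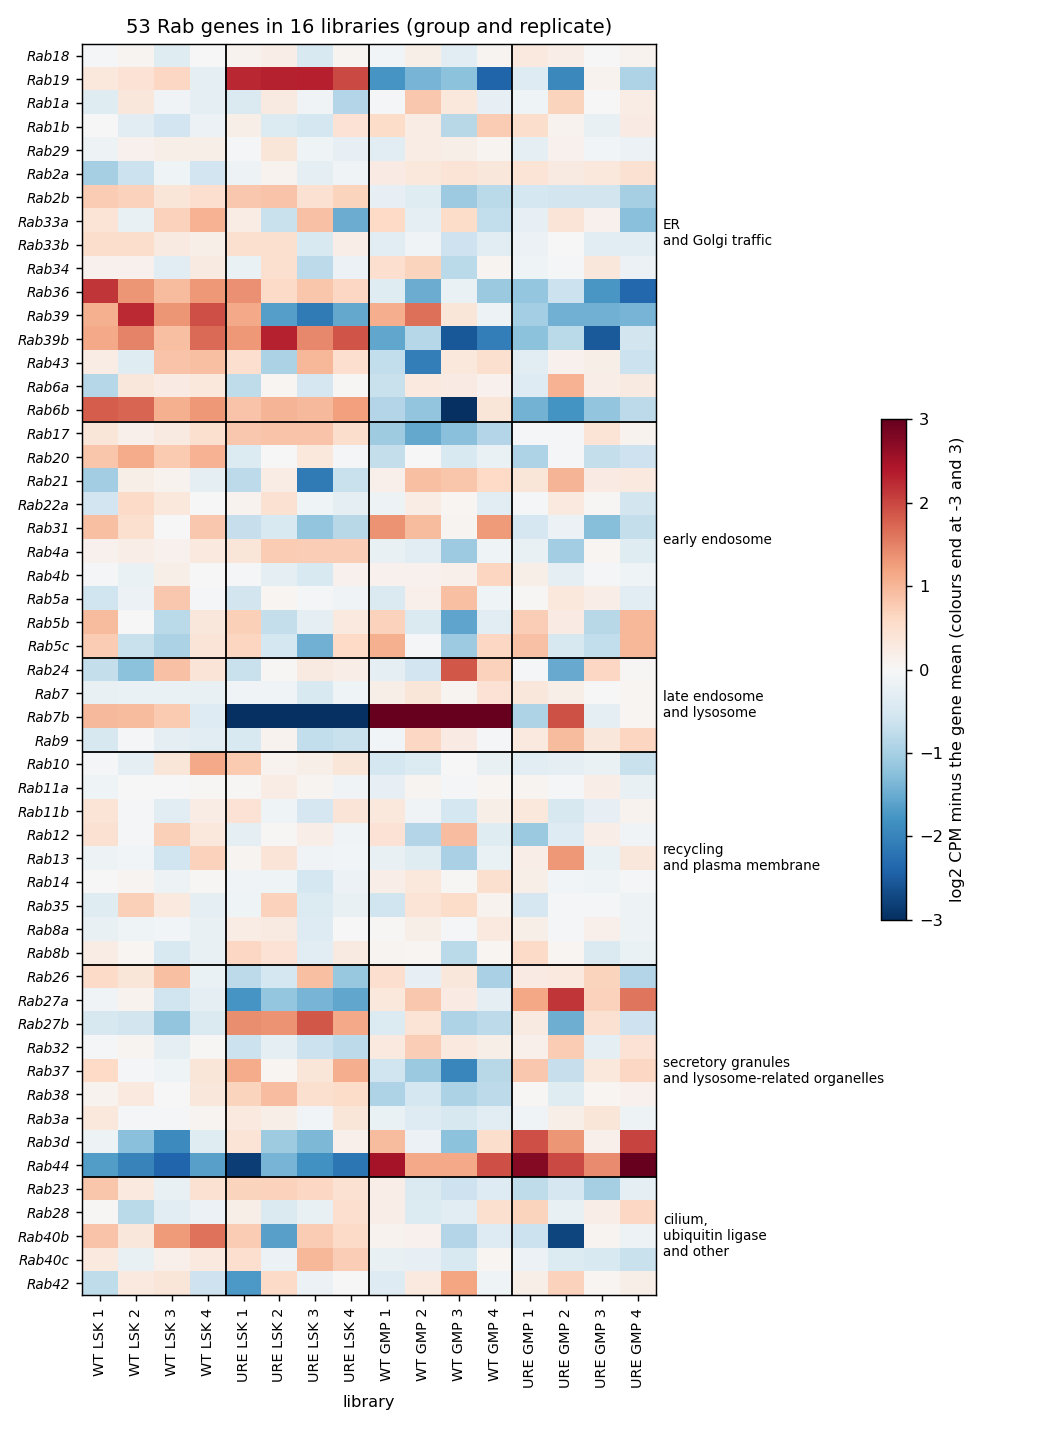
Levels of the 53 tested Rab genes in 16 libraries, as log2 CPM minus the mean of the gene, with genes in rows by role and libraries in columns by group and replicate. *Rab7b* is low in all URE LSK libraries, *Rab44* is high in all GMP libraries, *Rab19* and *Rab27b* are high in all URE LSK libraries (colours end at -3 and 3).

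For the 4 genes called by genotype for which RefSeq gives a promoter, the 250 bases before each annotated start (GRCm38.p6, strand of the gene) are printed below, since these windows show whether a core letter sequence of PU.1 or of its partner RUNX1 lies next to the start. The searched letters were GAGGAA or its reverse complement TTCCTC (PU.1 core) and TGTGGT or its reverse complement ACCACA (RUNX core), on both strands. Matches are in capitals.
*Rab27a*, chr9:73044560-73044809, plus strand: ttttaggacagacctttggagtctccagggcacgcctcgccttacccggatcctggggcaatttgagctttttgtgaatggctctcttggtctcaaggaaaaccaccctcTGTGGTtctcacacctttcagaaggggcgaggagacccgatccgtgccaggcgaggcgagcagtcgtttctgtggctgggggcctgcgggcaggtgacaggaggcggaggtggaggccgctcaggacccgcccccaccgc
*Rab27a*, second start, chr9:73063898-73064147, plus strand: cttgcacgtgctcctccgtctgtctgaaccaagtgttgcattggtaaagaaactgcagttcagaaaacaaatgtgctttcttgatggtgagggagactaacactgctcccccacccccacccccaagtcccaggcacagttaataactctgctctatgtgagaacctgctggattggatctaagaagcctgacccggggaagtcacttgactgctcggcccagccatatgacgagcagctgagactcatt
*Rab31*, chr17:65772753-65773002, minus strand: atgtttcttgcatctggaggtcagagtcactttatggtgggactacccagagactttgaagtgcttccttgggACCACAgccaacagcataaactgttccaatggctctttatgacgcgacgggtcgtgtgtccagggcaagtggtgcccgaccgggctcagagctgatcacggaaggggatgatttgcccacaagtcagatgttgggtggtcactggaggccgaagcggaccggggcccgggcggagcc
*Rab19*, chr6:39381103-39381352, plus strand: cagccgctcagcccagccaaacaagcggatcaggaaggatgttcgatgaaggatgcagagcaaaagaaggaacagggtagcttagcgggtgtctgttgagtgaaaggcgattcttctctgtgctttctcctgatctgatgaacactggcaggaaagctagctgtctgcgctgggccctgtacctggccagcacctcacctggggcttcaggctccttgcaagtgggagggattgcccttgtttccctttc
*Rab17*, chr1:90967668-90967917, minus strand: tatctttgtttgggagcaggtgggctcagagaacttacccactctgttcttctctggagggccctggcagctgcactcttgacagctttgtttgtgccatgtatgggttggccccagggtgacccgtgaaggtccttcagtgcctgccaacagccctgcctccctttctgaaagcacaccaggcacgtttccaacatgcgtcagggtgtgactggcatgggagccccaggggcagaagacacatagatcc
The first *Rab27a* window holds TGTGGT 140 bases before its start and the *Rab31* window holds ACCACA 177 bases before its start. The other 3 windows hold neither motif. Among 32851 promoters of the same length, 23.3% hold the PU.1 core and 14% the RUNX core. Among the 60 windows of the 48 members with an entry, 8 (13.3%) and 9 (15%) do. These are matches of letters, not binding sites.

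In LSKs, the question was which Rab genes differ between URE and WT. Fold change above 1.5 and an adjusted p under 0.05 in edgeR's quasi-likelihood test defined a call. Of 53 members tested, 2 were higher (*Rab27b*, *Rab19*) and 3 lower (*Rab27a*, *Rab31*, *Rab7b*) in URE. This is 9.43% of the members, where 6.14% of all 15154 genes tested were called (2.38% higher, 3.76% lower). The median log2 fold change was -0.11 over the members and 0.00 over all genes tested. URE and WT libraries did not overlap for 10 members, against 12.6% of all genes. In these bulk samples, fewer cells of a type and less RNA per cell cannot be told apart. The p-values measure the spread between mice.

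*Rab27a* (ENSMUSG00000032202, chr9:73044854-73097629) docks secretory granules at the plasma membrane and is the gene of Griscelli syndrome with immune deficiency. It measured 109, 128, 77.8 and 98.2 CPM in WT LSKs and 34.8, 52.7, 44.9 and 40.0 CPM in URE LSKs. Every URE library lay below every WT library. The log2 fold change was -1.29 (SE 0.208, edgeR adjusted p = 0.00621), 2.45-fold lower in URE. The gene shares 149 of its 3879 exonic bases with a predicted gene on the same strand, so a part of these counts could be assigned either way.

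*Rab27b* (ENSMUSG00000024511, chromosome 18) is the close relative of *Rab27a* and acts in secretion from platelets and mast cells. Its levels ran the other way, with 17.1, 16.2, 10.4 and 17.5 CPM in WT LSKs and 63.0, 60.9, 87.0 and 52.7 CPM in URE LSKs. The groups were well apart, and *Rab27b* rose 4.22-fold (log2 2.08, SE 0.246, edgeR adjusted p = 0.00116). Per kb of exon, *Rab27a* exceeded *Rab27b* 18.8 ± 2.88-fold in WT LSKs and 1.85 ± 0.461-fold in URE LSKs (SD, n = 4), with ratios of 15.4 to 21.7 and of 1.42 to 2.38. The sum of the pair was 28.0 ± 5.57 CPM per kb in WT LSKs and 17.3 ± 2.59 in URE LSKs. Megakaryocyte markers summed to 49.3 to 73.5 CPM in WT LSKs and to 146, 55.2, 325 and 144 CPM in URE LSKs. The URE library with the highest *Rab27b* also had the highest sum, while URE LSK replicate 2 held 60.9 CPM of *Rab27b* at a sum within the WT range. Most of the sum was *Itga2b*, with means of 36.8 CPM in WT LSKs and 138 CPM in URE LSKs. *Pf4* averaged 13.1 and 22.3 CPM, with a URE maximum of 75.7 CPM, and *Gp9* 9.04 and 7.02 CPM. Of 3 megakaryocyte markers tested, 1 was called higher in URE LSKs. The basophil and mast cell markers were mixed in LSKs. Of 5 tested, 2 were above 0, both called higher in URE, and the median log2 fold change was -0.06. *Cpa3* averaged 23.6 CPM in WT and 89.7 CPM in URE LSKs and *Mcpt8* 3.96 and 17.6 CPM. *Prss34* averaged 5.86 CPM in WT and 3.14 CPM in URE LSKs and *Ms4a2* 1.81 and 0.268 CPM. The part of these markers in the rise of *Rab27b* was not tested.

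*Rab19* (ENSMUSG00000029923, chr6:39381175-39390380), a Golgi-associated Rab, was 6.06, 6.55, 7.52 and 3.93 CPM in WT LSKs and 23.5, 24.3, 25.0 and 19.5 CPM in URE LSKs. The lowest URE library was above the highest WT library. It rose 3.73-fold (log2 1.90, SE 0.257, edgeR adjusted p = 0.00255).

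*Rab31* (ENSMUSG00000056515, chr17:65651729-65772752), also known as Rab22b, carries cargo between the trans-Golgi network and endosomes. It measured 319, 241, 169 and 302 CPM in WT LSKs and 106, 126, 76.0 and 97.2 CPM in URE LSKs. No library overlapped. The log2 fold change was -1.39 (SE 0.231, edgeR adjusted p = 0.00695), 2.62-fold lower in URE.

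*Rab7b* (ENSMUSG00000052688, chr1:131688695-131715439) is a late endosomal Rab known for its part in Toll-like receptor traffic in monocytic cells. It had 139, 132, 100 and 43 counts in the WT LSK libraries and 0, 6, 0 and 0 counts in the URE LSK libraries. In CPM these are 4.53, 4.44, 3.98 and 1.72 in WT and 0.201 in URE replicate 2. The 0 counts allow a level of up to 0.120, 0.125 and 0.129 CPM (3 counts of the library) in URE replicates 1, 3 and 4, for counting error only. The difference was called (edgeR adjusted p = 0.00676), and its fitted log2 fold change of -5.96 (SE 0.986) depends on the prior count. It was -9.60 without URE replicate 2, which leaves 0 counts in URE. Monocyte markers were lower in the same libraries, as given above.

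Among members not called in LSKs, *Rab20*, which acts in phagosome maturation, came nearest. It shares 356 of its 1392 exonic bases with a gene on the opposite strand, which the unstranded libraries cannot tell apart. It measured 8.92, 11, 8.76 and 10.4 CPM in WT LSKs and 3.73, 5.09, 6.25 and 4.84 CPM in URE LSKs, with no overlap (log2 -1.004, SE 0.258, edgeR adjusted p = 0.0524). With the replicate number as a block its adjusted p was 0.0353, which made 2 higher and 4 lower members, against 9.46% of all genes (3.83% higher, 5.62% lower). The largest fold change that was not called belonged to *Rab39*, with at most 49 counts in a library (log2 -2.52, SE 1.02, edgeR adjusted p = 0.260). Of the 53 members, 42 had an absolute fold change under 1.5.

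**Figure D2:**
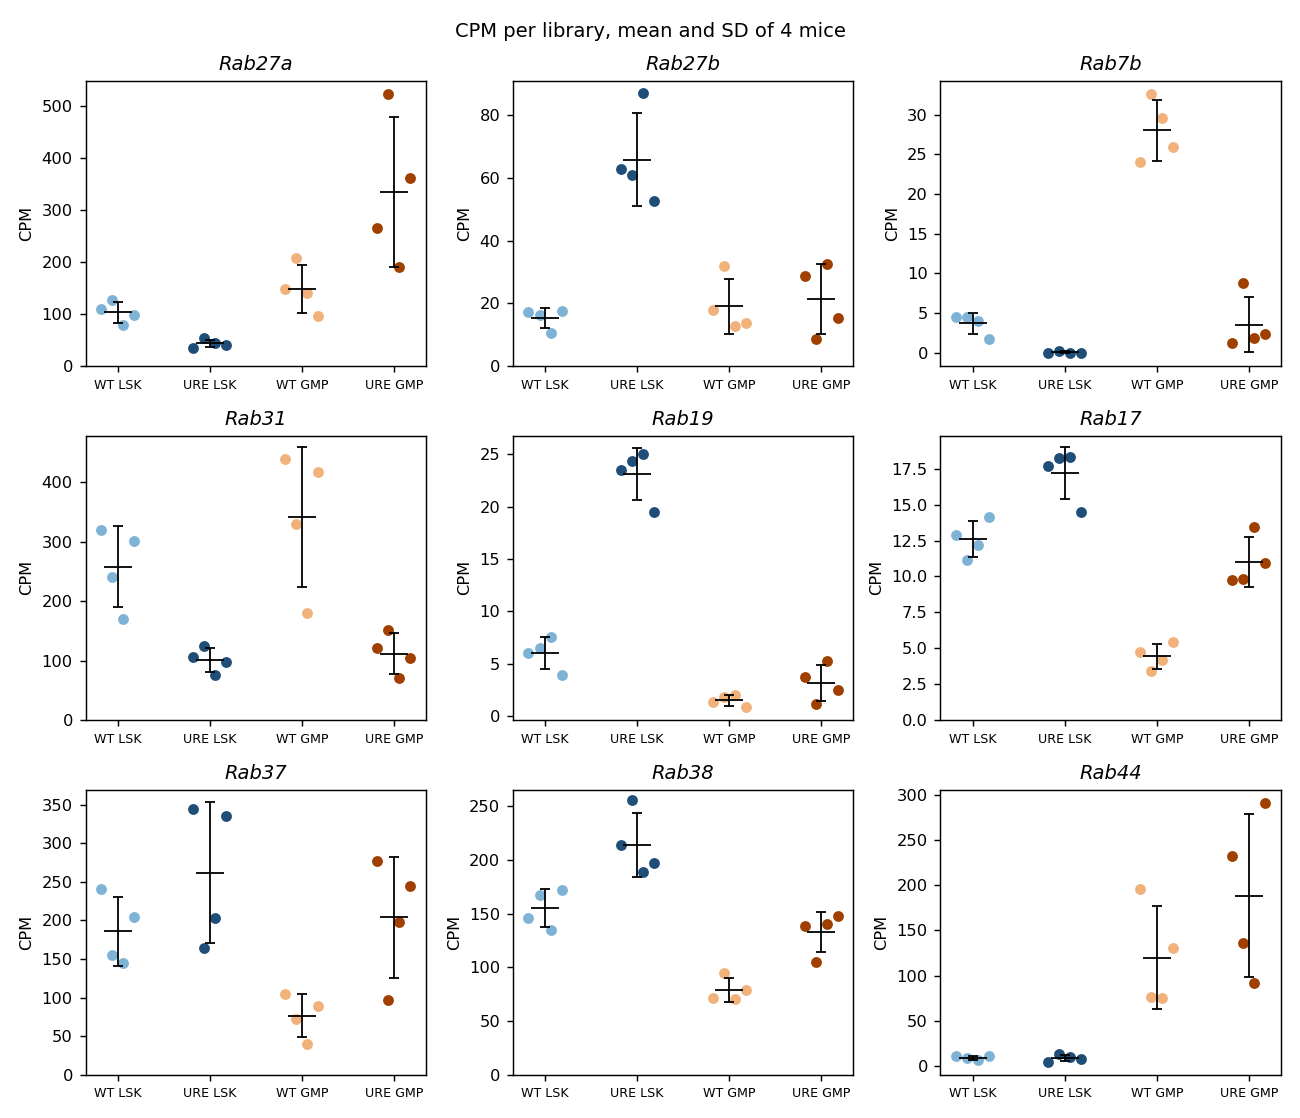
CPM of 9 Rab genes in each library of the 4 groups, with points for replicates 1 to 4 from left to right and bars for the mean and SD of 4 mice, on linear axes. *Rab27a* is lower in URE LSKs than in WT LSKs and has its highest library, 524 CPM, among URE GMPs. *Rab27b* stands at 52.7 CPM or more in every URE LSK library and at 32.5 CPM or less in all others.

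In GMPs, 51 members were tested between URE and WT, and 4 were higher (*Rab27a*, *Rab37*, *Rab17*, *Rab38*) and 2 lower (*Rab31*, *Rab7b*) in URE. This is 11.8% of the members, against 8.30% of all 13829 genes tested (4.67% higher, 3.63% lower). The median log2 fold change was -0.02 over the members and 0.01 over all genes. URE and WT libraries did not overlap for 6 of the members tested, against 14.9% of all genes. Of the 4 higher members, 3 are Rabs of secretory granules and lysosome-related organelles. In that branch 9 members were tested, with a median log2 fold change of 0.67 and 8 above 0, as were 6974 of the 13829 genes. In LSKs the median of its 9 tested members was 0.08, with 5 above 0, 1 called higher and 1 lower. The 3 GMP calls of the branch (*Rab27a*, *Rab37*, *Rab38*) were each lost without some single libraries, as given below, and with Y-linked expression in the model.

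*Rab27a* measured 148, 207, 140 and 96.0 CPM in WT GMPs and 265, 524, 189 and 361 CPM in URE GMPs. The groups overlapped, since WT replicate 2 lay above URE replicate 3. It was 2.31-fold higher in URE (log2 1.21, SE 0.319, edgeR adjusted p = 0.0498), at the border of the threshold, and the exact two-sided permutation test gave p = 0.0571. Without URE GMP replicate 2, the URE GMP library with the most *Rab27a*, the most monocyte marker RNA and the highest sum of GMP markers of its group, the log2 fold change was 0.88 (edgeR adjusted p = 0.120). The call was also lost without URE replicate 1 or 4 (edgeR adjusted p = 0.0690 and 0.127) and without WT replicate 1, 2, 3 or 4 (0.0964, 0.0621, 0.109 and 0.131), 7 of 8 cases in all. With the replicate block the adjusted p was 0.0122.

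*Rab37* (ENSMUSG00000020732, chr11:115091431-115162236), a Rab of mast cell secretory granules, measured 105, 72.8, 40.5 and 88.8 CPM in WT GMPs and 278, 97.4, 198 and 245 CPM in URE GMPs. Only URE replicate 2 fell within the WT range. The log2 fold change was 1.44 (SE 0.365, edgeR adjusted p = 0.0421, exact two-sided permutation p = 0.0571), 2.71-fold higher in URE. Without URE GMP replicate 2 it was 1.65 (edgeR adjusted p = 0.0123), but the call was lost without URE replicate 1, 3 or 4 (edgeR adjusted p = 0.112, 0.0656 and 0.116) and without WT replicate 2, 3 or 4 (0.116, 0.0620 and 0.0851). The sum of basophil and mast cell markers, most of it *Cpa3*, was 731, 1308, 1217 and 683 CPM in WT GMPs and 1669, 829, 2331 and 1442 CPM in URE GMPs, and URE replicate 2 was the lowest of its group in this sum as in *Rab37*. In WT GMPs the order differed, since replicates 1 and 4 had the highest *Rab37* and the lowest sums. URE replicate 3 had the highest sum but not the highest *Rab37*. The part of basophils and mast cells in the rise of *Rab37* was not tested. In LSKs *Rab37* was 241, 155, 145 and 204 CPM in WT and 345, 165, 204 and 335 CPM in URE, with overlap (log2 0.45, SE 0.268, edgeR adjusted p = 0.535).

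*Rab38* (ENSMUSG00000030559, chr7:88430273-88491572), which sorts cargo to melanosomes and other lysosome-related organelles, measured 71.2, 94.3, 70.4 and 79.1 CPM in WT GMPs and 138, 105, 140 and 148 CPM in URE GMPs. The groups did not overlap. It rose 1.72-fold (log2 0.78, SE 0.166, edgeR adjusted p = 0.0198), a call lost without URE replicate 1, 3 or 4 (edgeR adjusted p = 0.0588, 0.0503 and 0.0692) and without WT replicate 3 or 4 (0.0507 and 0.0569). In LSKs all URE libraries, at 189 to 256 CPM, also lay above the WT libraries, at 135 to 172 CPM, without a call (log2 0.43, SE 0.155, edgeR adjusted p = 0.191).

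*Rab17* (ENSMUSG00000026304, chr1:90958133-90969661) is best known from polarized epithelia, where it acts in recycling endosomes and transcytosis. It measured 4.75, 3.43, 4.16 and 5.42 CPM in WT GMPs and 9.73, 9.84, 13.5 and 10.9 CPM in URE GMPs. Every URE library was above every WT library. It rose 2.51-fold (log2 1.33, SE 0.253, edgeR adjusted p = 0.0119). In LSKs the libraries were also apart, at 11.2 to 14.1 CPM in WT and 14.5 to 18.3 CPM in URE (log2 0.41, SE 0.200, edgeR adjusted p = 0.386).

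*Rab31* was 439, 330, 181 and 417 CPM in WT GMPs and 121, 152, 70.5 and 105 CPM in URE GMPs. As in LSKs no library overlapped, and the gene fell 3.01-fold (log2 -1.59, SE 0.306, edgeR adjusted p = 0.0123). *Rab7b* had 547, 761, 611 and 522 counts in WT GMPs and 24, 174, 37 and 43 counts in URE GMPs, or 24, 32.6, 29.6 and 25.9 CPM against 1.16, 8.73, 1.86 and 2.36 CPM. The highest URE library was replicate 2, which also held the most monocyte marker RNA of that group. *Rab7b* fell 7.87-fold (log2 -2.98, SE 0.582, edgeR adjusted p = 0.0131), and without URE GMP replicate 2 the log2 fold change was -3.97 (edgeR adjusted p = 0.000662). The call was lost without URE GMP replicate 4 (edgeR adjusted p = 0.0513).

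The 4 calls of rises in GMPs were lost, at much the same fold changes, when sex entered the model. With Y-linked expression added to the model, none of the 4 passed (edgeR adjusted p = 0.165 for *Rab27a*, 0.102 for *Rab37*, 0.0868 for *Rab38* and 0.0649 for *Rab17*), while the log2 fold changes were 1.31, 1.47, 0.77 and 1.16. *Rab31* and *Rab7b* kept their calls. Within replicates 1 and 4, in which WT and URE mice were of the same sex, the log2 differences were 1.38 for *Rab27a*, 1.43 for *Rab37*, 0.93 for *Rab38* and 1.01 for *Rab17*.

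With the replicate number as a block, 3 further members were called higher in URE GMPs, where 16.3% of all genes were called (9.52% higher, 6.82% lower). *Rab3d*, a Rab of secretory granules in exocrine and mast cells, measured 140, 63.6, 30.8 and 105 CPM in WT GMPs and 277, 182, 80.9 and 296 CPM in URE GMPs. Each URE library exceeded the WT library of its number, but the groups overlapped (log2 1.32, SE 0.499, edgeR adjusted p = 0.164 without and 0.000654 with the block). The adjusted p went from 0.432 to 0.0386 for *Rab44* and from 0.525 to 0.0406 for *Rab5b*, an early endosome Rab. Replicates 1 and 4 were above replicates 2 and 3 in every group for *Rab3d*, *Rab37*, *Rab5b*, *Rab5c*, *Rab1b*, *Rab28* and *Rab11b*, which is 13.2% of 53 members. The opposite split held for 0 members. Of all 15935 genes, 1927 had replicates 1 and 4 above and 974 had them below, 18.2% in both directions together.

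**Figure D3:**
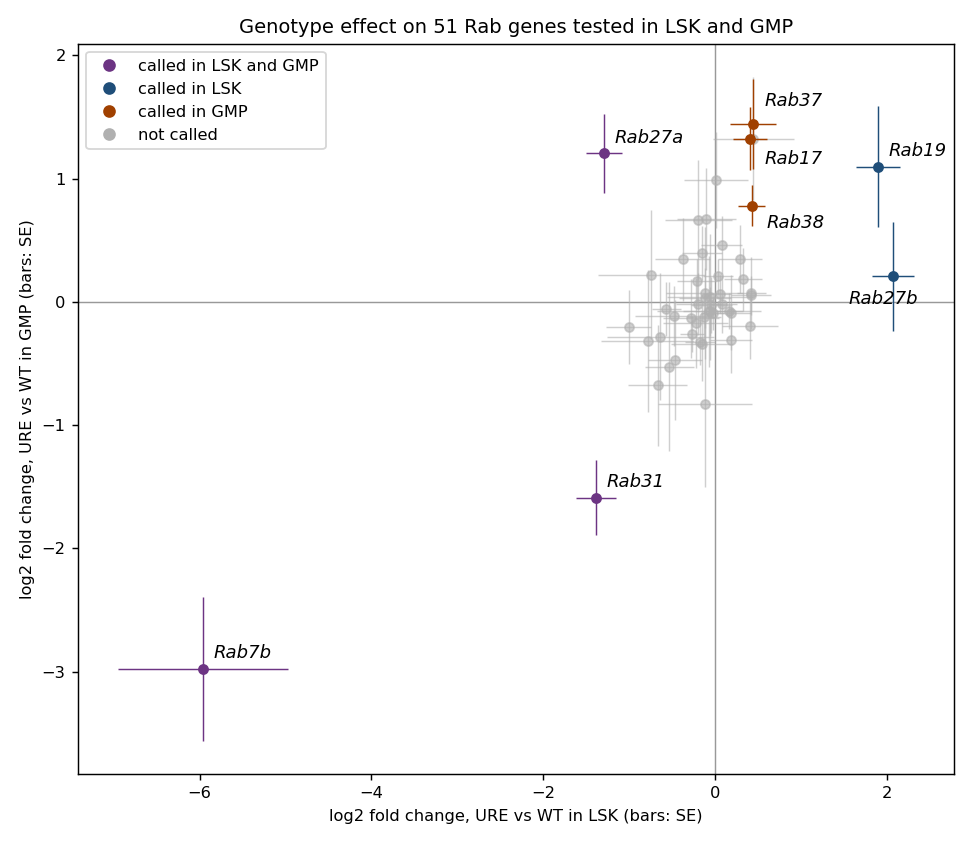
Log2 fold change between URE and WT in LSKs (horizontal) and in GMPs (vertical) for the 51 Rab genes tested in both, with SE bars and colours by call. *Rab31* and *Rab7b* are low in both cell types, *Rab27a* lies at -1.29 and 1.21, and *Rab27b* and *Rab19* were called in LSKs only.

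Calls in both cell types were made for 3 members, 60.0% of the 5 in LSKs and 50.0% of the 6 in GMPs. Over all genes, 379 were called in both, 40.8% of the 930 in LSKs and 33% of the 1148 in GMPs, and 4 of them in opposite directions. *Rab31* and *Rab7b* were lower in both, and *Rab27a* was lower in URE LSKs and higher in URE GMPs. The difference between the genotype effects was tested by an interaction term over the 16 libraries. *Rab27a* was the only one of 53 members past the threshold (1.22% of all 15935 genes tested were, 0.866% with a higher value in GMPs). Its genotype effect was 2.49 higher in GMPs than in LSKs on the log2 scale (SE 0.408, edgeR adjusted p = 0.00868), and it was called in each of the 16 fits that left out 1 library, with values of 2.16 to 2.66. For *Rab27b* the term was -1.91 (SE 0.526, edgeR adjusted p = 0.0971 without and 0.0498 with the replicate block) and for *Rab3d* 0.85 (SE 0.748, edgeR adjusted p = 0.797 without and 0.0146 with the block), where the block called 6.57% of all genes (3.97% higher, 2.60% lower). That *Rab19*, *Rab17*, *Rab37* or *Rab38* differed between cell types in its genotype effect was not shown (edgeR adjusted p = 0.616, 0.169, 0.471 and 0.655).

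The second question was which Rab genes differ between GMPs and LSKs of 1 genotype. These comparisons use the same libraries as those between genotypes. In WT, 53 members were tested, and 3 were higher and 11 lower in GMPs, 26.4% of the members against 27.3% of all genes (11.5% higher, 15.8% lower), a share near the background. In URE, 52 were tested, and 6 were higher and 10 lower, 30.8% against 21.8% of all genes (9.20% higher, 12.6% lower). The median log2 fold change was -0.04 in both genotypes, against -0.09 over all genes in both. Calls in both genotypes were made for 8 members, 57.1% of the 14 and 50.0% of the 16, all 8 in the same direction. Over all genes, 1984 were called in both, 49.1% of the 4037 in WT and 63.3% of the 3133 in URE, and 1976 of them moved the same way. GMP and LSK libraries did not overlap for 19 members in WT, against 31.3% of all genes, and for 20 in URE, against 26.6%.

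Among the granule and lysosome-related organelle Rabs, *Rab44* (ENSMUSG00000064147, chr17:29114145-29148980) rose most in WT. It is a large Rab with EF hands that takes part in mast cell degranulation. It measured 10.7, 8.53, 6.53 and 11.1 CPM in WT LSKs and 195, 76.3, 75.5 and 131 CPM in WT GMPs, far apart (log2 3.70, SE 0.370, edgeR adjusted p = 0.000192). In URE it was 4.77, 13.1, 9.67 and 7.54 CPM in LSKs and 233, 137, 92.4 and 291 CPM in GMPs (log2 4.43, SE 0.449, edgeR adjusted p = 0.000287).

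*Rab27a* did not pass between WT GMPs and WT LSKs (log2 0.51, SE 0.236, edgeR adjusted p = 0.139), where the lowest GMP library lay within the LSK range. Between URE GMPs and URE LSKs it was 7.81-fold higher (log2 2.97, SE 0.314, edgeR adjusted p = 0.000347), with all GMP libraries above all LSK libraries. *Rab27b* was at 17.8, 31.9, 12.6 and 13.7 CPM in WT GMPs and at 28.6, 8.58, 32.5 and 15.4 CPM in URE GMPs, and it fell from URE LSKs to URE GMPs (log2 -1.63, SE 0.399, edgeR adjusted p = 0.0173) and in WT did not pass the test (0.30, SE 0.316, edgeR adjusted p = 0.530). The fall of *Rab27b* in URE was not called without URE GMP replicate 4 (edgeR adjusted p = 0.0576). Per kb, *Rab27a* exceeded *Rab27b* 22.7 ± 5.75-fold in WT GMPs and by 25.6, 168, 16.1 and 64.8-fold in URE GMPs, so that the URE GMP libraries differed widely among themselves.

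*Rab38* was lower in GMPs in WT (log2 -0.98, SE 0.157, edgeR adjusted p = 0.00199) and in URE (-0.68, SE 0.163, edgeR adjusted p = 0.0161). *Rab37* was 2.42-fold lower in GMPs in WT (log2 -1.28, SE 0.296, edgeR adjusted p = 0.0114) and was not called in URE, where its GMP and LSK libraries overlapped. *Rab3d* was 96.9, 34.7, 28.3 and 81.0 CPM in URE LSKs and was called higher in URE GMPs (log2 1.80, SE 0.489, edgeR adjusted p = 0.0268), with overlap between the groups. That call was lost without URE GMP replicate 1 or 4 (edgeR adjusted p = 0.0619 and 0.0750) and without URE LSK replicate 2 or 3 (0.0510 and 0.0511). *Rab32*, which also acts at mitochondria, was called in URE, at 65.2 to 91.7 CPM in URE LSKs and 93.5 to 190 CPM in URE GMPs (log2 0.91, SE 0.224, edgeR adjusted p = 0.0182). Its adjusted p was 0.0504 without URE GMP replicate 2, 0.0525 without URE GMP replicate 4 and 0.0525 without URE LSK replicate 4, and that of *Rab38* in URE was 0.0532 without URE GMP replicate 2. Without URE LSK replicate 2 the fold change of *Rab38* in URE fell under 1.5.

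Among the late endosome and lysosome Rabs, *Rab7b* rose in GMPs in WT 7.65-fold (log2 2.94, SE 0.319, edgeR adjusted p = 0.000285). In URE, where most LSK libraries held 0 counts, it was called as well (edgeR adjusted p = 0.00679). *Rab9*, which returns receptors from late endosomes to the Golgi, was 24.9, 37.0, 20.7 and 21.5 CPM in URE LSKs and 42.2, 66.3, 43.5 and 53.9 CPM in URE GMPs, without overlap (log2 0.998, SE 0.240, edgeR adjusted p = 0.0160). In WT *Rab9* had a log2 difference of 0.50 (SE 0.201, edgeR adjusted p = 0.0937).

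Of the ER and Golgi Rabs, 6 of 16 tested were called lower in WT, where 15.8% of all genes were, and 5 of 15 in URE, where 12.6% were. *Rab39b*, an X-linked Rab known from neurons, was 1.60, 2.08, 1.35 and 2.40 CPM in WT LSKs and 0.176, 0.343, 0.0484 and 0.0994 CPM in WT GMPs (log2 -3.43, SE 0.518, edgeR adjusted p = 0.00149), and in URE it was 1.80 to 3.75 CPM in LSKs and 0.0503 to 0.439 CPM in GMPs (-3.23, SE 0.585, edgeR adjusted p = 0.00439). The GMP libraries hold only a few counts of it. *Rab6b*, the neuronal form of the Golgi Rab6, was 7.10, 6.69, 4.18 and 4.89 CPM in WT LSKs and 1.01, 0.815, 0.145 and 2.53 CPM in WT GMPs (log2 -2.33, SE 0.649, edgeR adjusted p = 0.0253), and 3.57 to 4.71 CPM against 0.502 to 1.10 CPM in URE (-2.39, SE 0.367, edgeR adjusted p = 0.00199). No GMP library reached the lowest LSK library in either genotype for these genes. The WT call of *Rab6b* was lost without WT GMP replicate 1 or 2 (edgeR adjusted p = 0.0517 and 0.0721) and without WT LSK replicate 1 or 2 (0.0584 and 0.0586).

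*Rab36*, a Golgi Rab that also positions lysosomes, was 11.7, 6.55, 5.06 and 6.45 CPM in WT LSKs and 1.98, 0.858, 2.23 and 1.14 CPM in WT GMPs (log2 -2.25, SE 0.410, edgeR adjusted p = 0.00351), with -2.31 (SE 0.456, edgeR adjusted p = 0.00652) in URE. *Rab19* was 1.36, 1.80, 2.03 and 0.845 CPM in WT GMPs and 3.71, 1.20, 5.28 and 2.52 CPM in URE GMPs, a fall from the LSK levels given above in WT (log2 -1.99, SE 0.345, edgeR adjusted p = 0.00280) and in URE (-2.85, SE 0.418, edgeR adjusted p = 0.00160). *Rab2b* and its close relative *Rab2a*, both of which act between ER and Golgi, moved in opposite directions in WT. *Rab2b* fell in WT, from 34.0 to 44.8 CPM in LSKs to 12.4 to 22.2 CPM in GMPs (log2 -1.18, SE 0.218, edgeR adjusted p = 0.00376), and in URE (-1.34, SE 0.187, edgeR adjusted p = 0.00126), while *Rab2a* rose in WT from 12.5 to 22.7 CPM to 29.6 to 33.3 CPM (0.89, SE 0.212, edgeR adjusted p = 0.0126). In URE, *Rab2a* averaged 23.3 CPM in LSKs and 32.2 CPM in GMPs and was not called (log2 0.47, SE 0.165, edgeR adjusted p = 0.0692). *Rab2b* shares 2469 of its 4163 exonic bases with another gene on the opposite strand, and the libraries are unstranded. The same holds for 634 of the 3401 exonic bases of *Rab39b* and 661 of the 3538 of *Rab33b*. *Rab33b*, a Golgi Rab that binds the autophagy protein Atg16l1, fell in WT from 29.7 to 38.0 CPM to 16.9 to 24.3 CPM (log2 -0.73, SE 0.181, edgeR adjusted p = 0.0154).

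Among the endosomal Rabs, *Rab17* fell 2.82-fold in WT (log2 -1.50, SE 0.234, edgeR adjusted p = 0.00174), and *Rab20* fell 2.43-fold, to 3.03, 5.02, 3.63 and 4.37 CPM in WT GMPs (-1.28, SE 0.241, edgeR adjusted p = 0.00413). In URE, *Rab4a*, of rapid recycling, fell from 36.5 to 48.4 CPM to 13.8 to 29.5 CPM (log2 -0.99, SE 0.250, edgeR adjusted p = 0.0198), a call lost without URE GMP replicate 4 (0.0594) or URE LSK replicate 4 (0.0558). Among the others, *Rab23*, a ciliary Rab that restrains Hedgehog signalling, was 16.4, 16.6, 15.8 and 14.3 CPM in URE LSKs and 6.02, 7.28, 5.13 and 8.44 CPM in URE GMPs (log2 -1.22, SE 0.235, edgeR adjusted p = 0.00568). *Rab40b*, a Rab with a SOCS box that joins a Cul5 ubiquitin ligase, was 3.39, 2.35, 4.62 and 5.85 CPM in WT LSKs and 1.98, 2.02, 0.968 and 1.39 CPM in WT GMPs (log2 -1.35, SE 0.374, edgeR adjusted p = 0.0247), a call lost without WT GMP replicate 3 or 4 (0.0574 and 0.0659) and without WT LSK replicate 3 or 4 (0.0524 and 0.0745). *Rab10*, of plasma membrane delivery, which shares 143 of its 3513 exonic bases with an antisense gene, was called lower in URE GMPs than in URE LSKs (log2 -0.74, SE 0.202, edgeR adjusted p = 0.0279), a call lost without URE GMP replicate 1, 2 or 4 (0.0679, 0.0650 and 0.0899) and without URE LSK replicate 1 or 4 (0.0944 and 0.0699).

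With the replicate block the calls between GMPs and LSKs numbered 19 in each genotype, where 40.9% of all genes in WT (15.8% higher, 25.1% lower) and 31.9% in URE (13.3% higher, 18.6% lower) were called. Those added in WT were *Rab21* and *Rab3d* (higher) and *Rab23*, *Rab4a* and *Rab43* (lower), and in URE *Rab21* and *Rab6a* (higher) and *Rab17* (lower). *Rab43* shares 4164 exonic bases and *Rab6a* 708 with another gene.

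**Figure D4:**
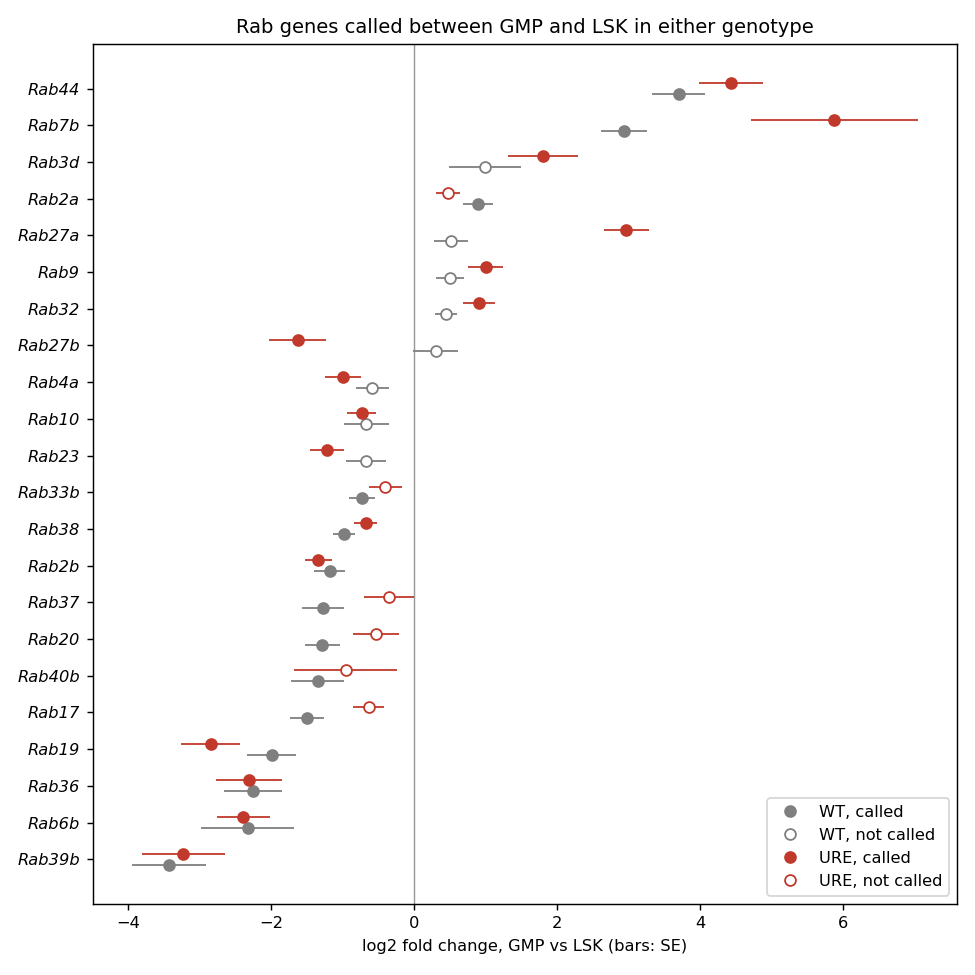
Log2 fold change between GMPs and LSKs in WT (grey) and URE (red) for the Rab genes called in either genotype, with SE bars, filled points where called and open points where not. *Rab44* and *Rab7b* are highest in both genotypes, *Rab39b* and *Rab6b* lowest in WT, and *Rab27a* moves from 0.51 in WT to 2.97 in URE.

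The partners of the Rabs were taken from lists of exchange factors, GAPs, effectors, and prenylation and GDI genes. In URE against WT LSKs, 2 of 38 effectors tested were higher and 1 lower, and 1 of 34 GEFs was higher and 3 lower. These are 7.89% of the effectors and 11.8% of the GEFs, against 6.14% of all genes. Of 35 GAPs, 1 was lower (*Evi5*, a GAP of Rab11, log2 -1.70, SE 0.346, edgeR adjusted p = 0.0183). Of 8 prenylation and GDI genes none was called by edgeR, with 1 at an unadjusted p under 0.05, as were 2325 of all 15154 genes tested. In GMPs, 5 of 32 effectors were higher and 3 lower, which is 25.0%, and 1 of 32 GEFs was higher and 4 lower, which is 15.6%, against 8.30% of all genes (4.67% higher, 3.63% lower). None of 35 GAPs and none of 8 prenylation and GDI genes was called by edgeR in GMPs. An unadjusted p under 0.05 was found for 7 and 1 of them, and for 2808 of all 13829 genes tested. With the replicate block, which called 16.3% of all genes in GMPs, 7 GAPs were higher and 2 lower, 4 GEFs higher and 7 lower, and 7 effectors higher and 5 lower. In LSKs, where the block called 9.46% of all genes, 3 GAPs were higher and 1 lower, 2 GEFs higher and 5 lower, and 2 effectors higher and 1 lower. The median log2 fold change of the effectors was 0.02 in LSKs and 0.20 in GMPs. Between GMPs and LSKs, 12 of 35 effectors were called lower and 0 higher in WT (34.3%, against 27.3% of all genes, 15.8% lower), and 8 of 35 lower and 1 higher in URE (25.7%, against 21.8% of all genes, 12.6% lower). The shares called were 22.9% of the GAPs and 20.6% of the GEFs in WT, and 14.3% and 18.2% in URE. With the replicate block, which called 40.9% of all genes in WT and 31.9% in URE, 1 effector was higher and 18 lower in WT and 1 higher and 13 lower in URE, 3 GAPs were higher and 12 lower in WT and 5 higher and 10 lower in URE, and 2 GEFs were higher and 15 lower in WT and 3 higher and 12 lower in URE.

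The called effectors with the largest rises in both cell types encode synaptotagmin-like proteins, which bind Rab27. *Sytl4* (granuphilin), which holds granules at the plasma membrane, was 27.8, 30.8, 24.9 and 26.7 CPM in WT LSKs and 125, 148, 169 and 121 CPM in URE LSKs (log2 2.32, SE 0.180, edgeR adjusted p = 0.000155), and 10.0, 13.3, 7.40 and 9.59 CPM in WT GMPs against 69.1, 45.1, 85.1 and 53.7 CPM in URE GMPs (2.68, SE 0.267, edgeR adjusted p = 0.000633). The genotypes were apart in both cell types. *Sytl1* was 9.63, 4.80, 2.08 and 6.36 CPM in WT GMPs and 65.9, 45.3, 27.3 and 90.4 CPM in URE GMPs (log2 3.35, SE 0.512, edgeR adjusted p = 0.00433). *Sytl2* had 0, 2, 0 and 3 counts in WT GMPs and 322, 89, 193 and 199 counts in URE GMPs (edgeR adjusted p = 0.000866), and in LSKs it rose from 33, 20, 13 and 6 counts to 106, 72, 99 and 61 (log2 2.36, SE 0.496, edgeR adjusted p = 0.0214). For *Sytl1* and *Sytl2*, as for *Rab27a*, the interaction term was above 0 and past the threshold (edgeR adjusted p = 0.0322 and 0.0140). *Unc13d* (Munc13-4), another Rab27 effector, named after its values were seen, overlapped between genotypes, with 41.7 to 143 CPM in WT LSKs and 38.0 to 138 CPM in URE LSKs (log2 0.08, SE 0.495, edgeR adjusted p = 0.981), and 37.5 to 89.9 CPM in WT GMPs and 36.1 to 126 CPM in URE GMPs (0.44, SE 0.449, edgeR adjusted p = 0.684).

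*Myo5a*, the myosin that Rab27a recruits through its effector melanophilin, ran the other way. It was 38.5, 50.5, 59.9 and 46.8 CPM in WT LSKs and 10.1, 15.3, 31.0 and 14.4 CPM in URE LSKs (log2 -1.49, SE 0.351, edgeR adjusted p = 0.0360), and 34.1 to 53.3 CPM against 6.21 to 17.5 CPM in GMPs (-1.88, SE 0.340, edgeR adjusted p = 0.00930). The other large fall among effectors in GMPs was *Rab11fip4*, a binding partner of Rab11 (log2 -1.86, SE 0.463, edgeR adjusted p = 0.0391).

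Among exchange factors, *Rin2* and *Rin3*, both of the Rab5 family, moved apart in LSKs. *Rin2* was 18.5, 9.95, 8 and 11.9 CPM in WT LSKs and 28.5, 37.4, 28.0 and 24.9 CPM in URE LSKs (log2 1.26, SE 0.287, edgeR adjusted p = 0.0311), but 9.45, 5.19, 3.58 and 5.17 CPM in WT GMPs and 2.31, 2.66, 1.51 and 2.47 CPM in URE GMPs (-1.36, SE 0.353, edgeR adjusted p = 0.0460). Its effect differed between cell types in the direction opposite to that of *Rab27a* (interaction -2.64, SE 0.450, edgeR adjusted p = 0.00885). *Rin3*, which acts on Rab5 and Rab31, was 195, 87.9, 42.3 and 165 CPM in WT LSKs and 40.5, 15.2, 19.5 and 36.5 CPM in URE LSKs (log2 -2.18, SE 0.488, edgeR adjusted p = 0.0289) and overlapped between genotypes in GMPs. *Rab3il1*, an exchange factor of Rab8, was lower in URE in LSKs (log2 -1.43, SE 0.279, edgeR adjusted p = 0.0157) and in GMPs (-1.61, SE 0.418, edgeR adjusted p = 0.0463). In GMPs the DENN-domain genes *Dennd2a* and *Dennd5b* had log2 fold changes of 2.93 (SE 0.466, edgeR adjusted p = 0.00518) and -3.04 (SE 0.540, edgeR adjusted p = 0.00852), at group means of 0.343 and 2.63 CPM in WT and URE for the first and 4.81 and 0.577 CPM for the second.

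**Figure D5:**
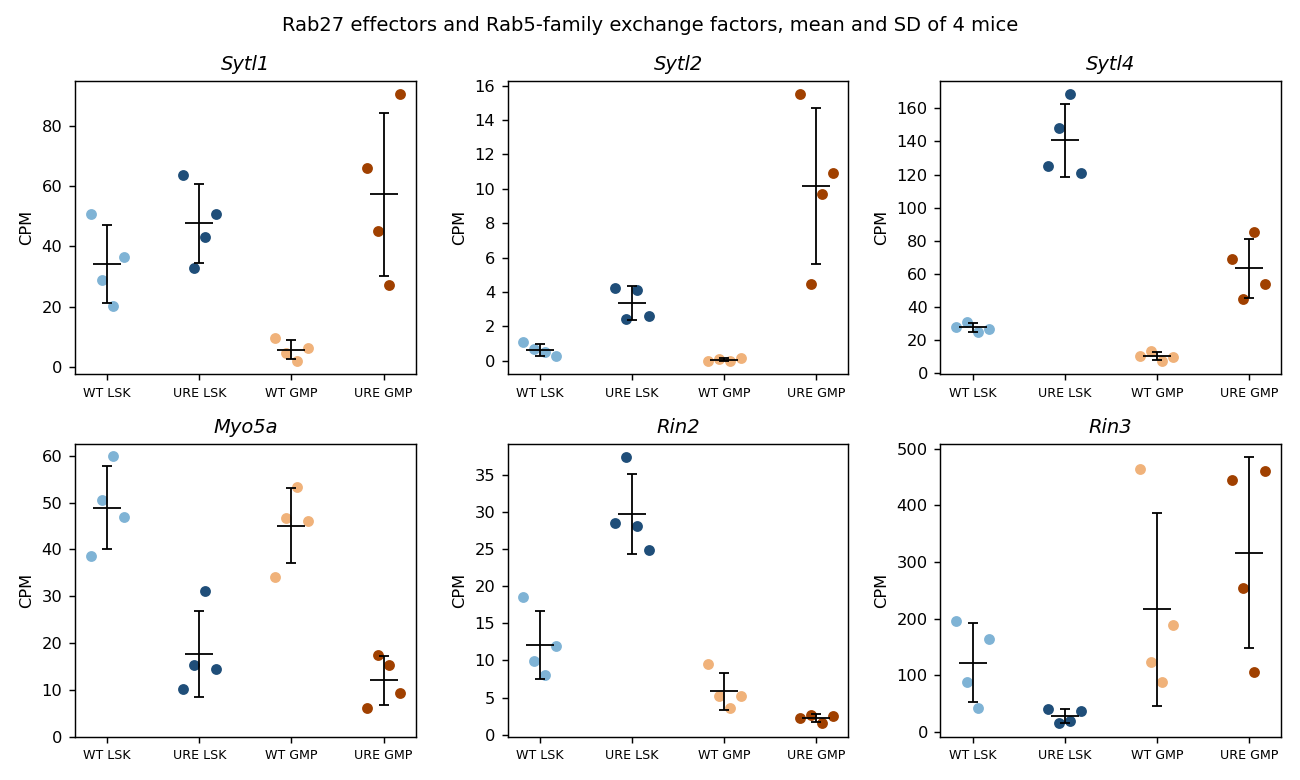
CPM per library of 6 Rab partners in the 4 groups, with points for replicates 1 to 4 from left to right and bars for the mean and SD of 4 mice, on linear axes. *Sytl4* is higher in URE in both cell types, *Sytl1* and *Sytl2* reach 27.3 and 4.47 CPM or more in every URE GMP library, *Myo5a* is lower in URE in both cell types, and *Rin2* is higher in URE LSKs and lower in URE GMPs.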

How the data were processed

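RNA was sequenced in 16 libraries (4 mice per genotype and cell type). The authors quantified paired-end reads with salmon, summed them per gene (tximport) and deposited estimated counts for 54347 genes, whole numbers with no normalization. The submitters' processing notes name Salmon and GRCm38, and the annotation release is not given in the sources used here. The libraries came from up to 10 ng of RNA by an unstranded low-input kit without molecular identifiers, so amplified copies count as molecules and overlapping antisense genes share reads. Library totals were 20028302 to 29128858 counts, and intervals from counts of 0 cover counting error only. The counts of replicates differed by more than sampling noise in every group (smallest chi-square per degree of freedom 29.6).

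Each comparison of 2 groups was fitted on its 8 libraries over all genes with edgeR 4.0.16 (limma 3.58.1, R 4.3.3), with TMM, filterByExpr, the quasi-likelihood test and Benjamini-Hochberg adjustment. Calls needed a fold change beyond 1.5 and adjusted p below 0.05, and the interaction, fitted over 16 libraries, adjusted p alone. SEs come from log2 fold change and F statistic. Levels per kb and coordinates used GENCODE M21 (GRCm38), matched by gene ID for all 59 members. Promoters are from RefSeq (GRCm38.p6). Permutation tests were exact and two-sided on log2 CPM with a prior count of 2, and the smallest p they can give is 0.0286. Plots were drawn with matplotlib 3.10.9.

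Members and lists were chosen with earlier results of these data known. The genes named with values were the members called in any comparison, *Rab27a* and *Rab37*, the 5 strongest members per group, and at most 2 rises and 2 falls per partner list and genotype comparison. Members called only with the block, *Rab20* and *Rab39* were named after their values were seen. Replicate numbers come from the labels. Deviations of same-numbered libraries correlated in every pair (r 0.238 to 0.710), so fits with the number as a block are given where they change a call. The other alternatives were DESeq2 1.42.0, RLE size factors, no filter or 1 CPM in 4 libraries, a term for replicates 1 and 4, a Y-linked covariate, a joint fit, and leaving out each library.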

Additional observations from a re-analysis of the deposited data

Results flagged for a closer look

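*Rab27a* was flagged because its genotype effect differed between cell types by the interaction term, 2.49 on the log2 scale.

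A single library lay far from the other 3 of its group, by Dixon's 95% limit, in 6 of 96 groups of member levels tested. Chance flags about 1 in 20 groups. *Rab7b* in URE GMP replicate 2 stood at 8.73 CPM where the others held 1.16 to 2.36 CPM, and in URE LSK replicate 2 at 0.201 CPM, 6 counts, where the others held 0. *Rab17* in URE LSK replicate 4 was at 14.5 CPM where the others held 17.7 to 18.3 CPM. *Rab2b* in URE GMP replicate 4 was at 13.3 CPM where the others held 18.1 to 18.3 CPM. *Rab40b* in URE LSK replicate 2 was at 0.536 CPM, 16 counts, where the others held 2.79 to 3.21 CPM. *Rab4a* in URE LSK replicate 1 was at 36.5 CPM where the others held 47.4 to 48.4 CPM.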

How the results depend on the processing

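Over 42 called values of single members, no alternative turned a direction. Of 761 values recomputed, 54 lost the call, 15 from within replicates 1 and 4 or 2 and 3 moved by more than the spread between replicates, and 300 of 344 values from leaving out 1 library kept their call. The count of members called between URE and WT GMPs was 6, and 2 once Y-linked expression entered the model. Leaving out 1 library gave counts of 2 to 5 in GMPs, with 3 without URE GMP replicate 1, 2 without URE GMP replicate 4, and 3 without WT GMP replicate 3 or 4, and the cause was not tested. The same range was 5 to 6 in LSKs, 13 to 15 between WT GMPs and LSKs, 11 to 17 between URE GMPs and LSKs, and 1 in every case for the interaction. The interaction count of 1 was 3 with DESeq2 and 3 with the replicate block. Except for the replicate block, the share of all genes called in each of these fits is not given here. Such counts therefore do not show whether Rab genes gained or lost calls more often than other genes. The replicate block changed no call of a member other than those given in the report. The GMP call of *Rab27a* was also lost with RLE size factors (edgeR adjusted p = 0.0548) and with a minimum of 1 CPM (0.0524). Between GMPs and LSKs, the WT call of *Rab33b* was lost with no filter on low counts (edgeR adjusted p = 0.0551), the WT call of *Rab40b* in a joint fit of the 16 libraries (0.101), and the URE call of *Rab10* in both (0.0549 and 0.0686). Depth limits values such as that of *Rab39b*, which had at most 8 counts in any GMP library.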
